A study of Mus musculus with 11 samples.

Results

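Starburst amacrine cells were examined in the retinas of 11 mice at P10, as 118 of 20033 single cells. A cell was taken as a starburst cell if it had over 300 genes detected and held at least 1 RNA molecule, counted by its unique molecular identifier (UMI), of 2 or more of the 5 genes Chat, Slc18a3, Slc5a7, Slc10a4 and Fezf1. The cells were thus chosen by the UMIs of these 5 genes, whose own levels are given as a description and were left out of every test.

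Starburst cells are the cholinergic interneurons of the retina. They lie in a pair of mirrored layers, as OFF cells in the inner nuclear layer and ON cells displaced into the ganglion cell layer, and release both acetylcholine and GABA. They make inhibitory synapses on direction-selective ganglion cells and are the best known source of direction selectivity in the retina. For a time before the eyes open they also drive waves of spontaneous activity through acetylcholine.

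All mice were C57BL/6J wild-type pups. The control mice (PBS, n = 3) received vehicle, and the STZ mice (n = 3), their littermates, received intraperitoneal streptozotocin every day, which destroys insulin-producing cells. The study uses these hyperglycemic pups as a model of the first phase of retinopathy of prematurity (Phase I ROP). The ω-3 mice (STZ_omega3, n = 2) and ω-6 mice (STZ_omega6, n = 3) were littermates of each other, also received STZ, and were nursed by dams on a diet enriched in ω-3 LCPUFAs (DHA and EPA) or in the ω-6 LCPUFA arachidonic acid. Each diet was given in a cage of its own, so that diet and cage cannot be told apart, and whole retinas were dissociated with papain and captured by inDrop without sorting.

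The 118 starburst cells comprised 4, 13 and 10 cells from the control mice, 7, 11 and 15 from the STZ mice, 15 and 10 from the ω-3 mice, and 9, 17 and 7 from the ω-6 mice. They held a median of 8483 UMIs and 3417 genes per cell, against 4017 UMIs in 1463 other GABAergic amacrine cells, 3364 in 1117 glycinergic amacrine cells and 1242 in 7381 rods. The 11 libraries held 2565568 to 6517776 UMIs each. The rule needs several genes to be seen in 1 cell and so finds deep cells more easily. For this reason shares of cells with a UMI are also given after each cell was thinned to 1000 UMIs. By group, the median was 9163 UMIs per starburst cell in control, 5526 in STZ, 9298 in ω-3 and 9778 in ω-6 mice. Of the 118 cell barcodes, 20 also occurred in a cell of another library, and none was shared between starburst cells.

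The control libraries stood apart from the other 8. In starburst cells, the mitochondrial 16S ribosomal RNA mt-Rnr2 took 50983, 76044 and 85408 CPM (a gene's UMIs scaled by all UMIs of the same cells, on the usual CPM scale) in the control mice, 32611, 10875 and 10670 CPM in the STZ mice, and 4013 to 9073 CPM in the mice on the diets. The structured nuclear RNA Rn7sk had 5 to 8 UMIs in each control mouse and 0 or 1 in each other mouse. Other GABAergic amacrine cells showed the same order, with mt-Rnr2 between 32052 and 34398 CPM in control and between 2913 and 8254 CPM in all other mice. STZ treatment and whatever else set the control libraries apart cannot be told apart.

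Of the 5 genes of the rule, 4 serve acetylcholine. Slc18a3, the vesicular acetylcholine transporter, had a UMI in 108 of the 118 cells (91.5%), and Slc5a7, the choline transporter that takes choline back up, in 106 (89.8%). Chat, the enzyme that makes acetylcholine, had a UMI in 84 cells (71.2%), and Slc10a4, a transporter of cholinergic and monoaminergic synaptic vesicles, in 81 (68.6%). Fezf1, a zinc finger transcription factor known from ON starburst cells, had a UMI in 23 cells (19.5%). In other GABAergic amacrine cells these genes had a UMI in 0.1% to 1.1% of cells. Cells that passed the rule were left out of this class, so that its low shares are partly set by the choice of cells. Slc18a3 (GRCm38 chromosome 14, 32462438 to 32464850, minus strand) lies within the Chat gene (32408203 to 32465989, minus strand), so that molecules may have been split between them, and 76 cells held a UMI of both.

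Across the 11 mice, the level of Slc5a7 in starburst cells ran from 328 to 763 CPM and that of Slc18a3 from 246 to 606 CPM. Slc18a3 was at 284, 274 and 246 CPM in the control mice, 383, 573 and 566 CPM in the STZ mice, 548 and 462 CPM in the ω-3 mice and 321, 541 and 606 CPM in the ω-6 mice. The 3 control mice were below every other mouse for this gene, but its UMIs helped choose the cells, so that this order is a description only. Of the genes tested between STZ and control mice below, 32.3% had mice that did not overlap. Chat was at 244, 431 and 160 CPM in the control mice and between 115 and 495 CPM in the others, and these ranges overlapped. As genes of the rule they received no test.

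By the number of genes held, 22 cells had exactly 2 of the 5 genes, 41 had 3, 40 had 4 and 15 had all 5. Just inside the rule, among the 22 cells with exactly 2, Isl1 had a UMI in 81.8%, Megf10 in 68.2%, Sox2 in 45.5% and Gad1 in 95.5%. In the 96 cells with 3 or more, Sox2 had a UMI in 84.4%. Just outside it, among 268 cells with exactly 1 of the 5 genes, Isl1 had a UMI in 24.3%, Sox2 in 3.0% and Gad1 in 17.9%. Only 2 of those 268 cells held both Isl1 and Sox2.

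The label was checked with genes that the rule did not use. Gad1, a GABA-synthesizing enzyme, had a UMI in 99.2% of the 118 cells, the vesicular GABA transporter Slc32a1 in 91.5% and the amacrine transcription factor Tfap2b in 95.8%. The glycine transporter Slc6a9 was seen in 2.5%, and Slc17a6, the vesicular glutamate transporter of ganglion cells, in 0 of 118 cells, which allows a share of up to 2.54% of cells with a UMI. The horizontal cell factors Onecut1 and Lhx1 were also at 0. The third horizontal marker, the septin Sept4, had a UMI in 45.8% of starburst and 10.2% of other GABAergic amacrine cells (7.63% and 3.23% at 1000 UMIs), and ran from 12.4 to 219 CPM and from 26.1 to 262 CPM over the mice, ranges that overlapped. Isl1, Sox2 and Megf10, none of which chose the cells, were found in 96.6%, 77.1% and 88.1% of them. Rod RNA was present, and 14 of the 118 cells held 3 or more markers of another class, 13 of them rod markers. No doublet caller was run.

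Starburst cells were then compared with other GABAergic amacrine cells of the same mice, to describe what sets this type apart within its class. UMIs were summed per mouse and class over 10 mice, leaving out the control mouse with 4 starburst cells. Of 6211 genes tested with edgeR, 1367 (22%) passed an adjusted p of 0.05, with 652 (10.5%) higher and 715 (11.5%) lower in starburst cells. Of the genes tested, called or not, 739 (11.9%) differed in the same direction in every mouse.

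From a list of starburst and amacrine transcription factors 11 genes were tested, of which 3 were higher and 7 lower in starburst cells. Isl1 (chromosome 13, 116298281 to 116309689, minus strand), a LIM-homeodomain factor that starburst cells share with ON bipolar and ganglion cells, was at 719 to 2053 CPM (median 1710, n = 10 mice) in starburst cells and 1.8 to 64.1 CPM (median 20.2) in other GABAergic cells. Its log2 fold change was 5.78 ± 0.22 (SE, edgeR adjusted p = 6.37e-20). Sox2 (chromosome 3, 34650405 to 34652461, plus strand), a progenitor factor that starburst cells keep, was at 203 to 651 CPM against 0 to 20.4 CPM, a log2 fold change of 5.66 ± 0.24. Sox2ot, the long RNA whose gene spans Sox2, was higher by 5.84 ± 0.21. Because Sox2 lies within it, molecules could be split between the pair. Barhl2, a homeodomain factor of amacrine subtypes, was higher by 1.27 ± 0.23, in 10 of 10 mice. For Isl1, Sox2 and Sox2ot the lowest starburst mouse was above the highest mouse of the other cells, while the ranges of Barhl2 overlapped between mice.

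Bhlhe22, a bHLH factor of other amacrine subtypes, had 1 UMI in starburst cells, in STZ mouse 3, against 69.8 to 300.4 CPM in other GABAergic cells (log2 fold change −6.94 ± 0.46). Meis2, a homeodomain factor of GABAergic amacrine cells, was at 0 to 115 CPM (median 0) against 239 to 631 CPM (log2 fold change −4.80 ± 0.31). Smaller differences were found for Nr4a2 (−1.47), Six3 (−1.08), Onecut2 (−0.85), Zfhx3 (−0.50) and Pax6 (−0.46), of which Zfhx3 was lower in 8 of 10 mice and the others in 10 of 10. Under the alternatives Onecut2 lost its call in 11 of 19 (adjusted p up to 0.110), Zfhx3 in 9 of 20 (up to 0.212) and Pax6 in 1 of 20. Pax6, a factor of amacrine and ganglion cells, still had a median of 527 CPM. The median log2 fold change of the 11 factors was −0.85, against −0.04 over all genes.

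Genes known to space starburst cells and shape their layers differed in both directions. Of 16 genes tested from a list for adhesion, spacing and direction selectivity, 5 were higher and 7 lower. Megf10, a transmembrane receptor by which starburst cells repel their like to form an even mosaic, was at 183 to 659 CPM (median 426) against 1.8 to 22.6 CPM (log2 fold change 5.60 ± 0.24, edgeR adjusted p = 1.15e-18). Its relative Megf11 was at 384 to 814 CPM against 36.5 to 75.9 CPM (3.38 ± 0.16). Plxna2, a semaphorin receptor that helps separate the ON and OFF starburst layers, was higher by 1.85 ± 0.15, the axon guidance receptor Robo2 by 1.55 ± 0.13 and the adhesion protein Amigo2, which limits starburst arbor size, by 1.37 ± 0.16. All 5 were higher in 10 of 10 mice.

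The genes lower in starburst cells were the receptor phosphatase Ptprk (−5.68 ± 0.49), the self-avoidance molecule Dscam (−3.89 ± 0.35), Robo1 (−2.92), Unc5d (−2.74), the Robo ligand Slit2 (−1.40), Sema6a (−0.69) and Plxna4 (−0.64). Dscam was at 0 to 77.0 CPM (median 3.97) in starburst cells against 52.3 to 252 CPM. Sema6a was lower in 8 of 10 mice only. Members of the same receptor family thus differed in sign, with Robo2 higher and Robo1 lower.

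**Figure D1:**
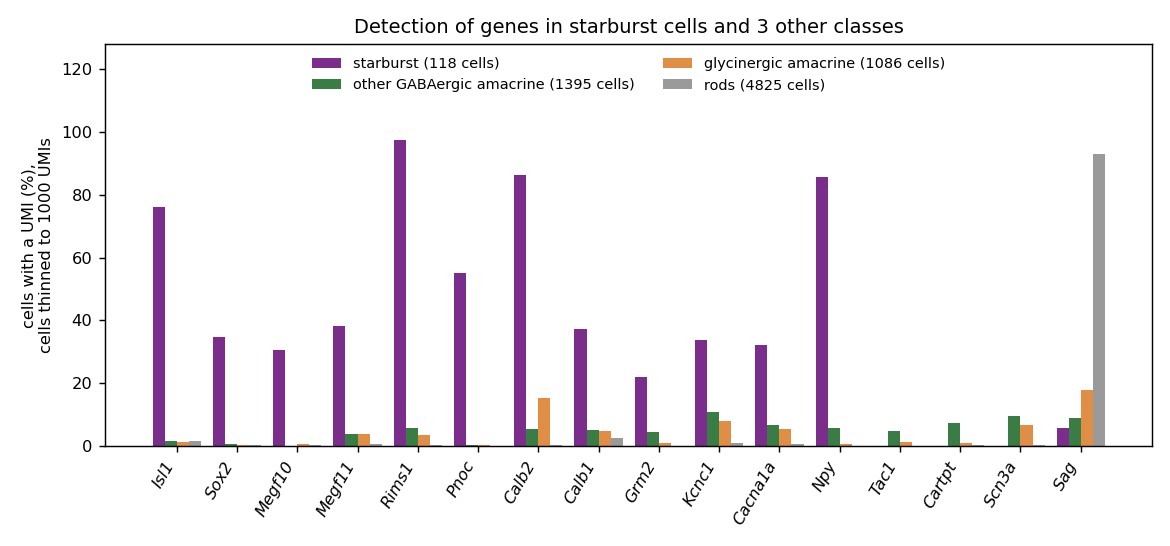
Percent of cells with a UMI of each gene (y axis) after each cell was thinned to 1000 UMIs, in starburst cells and 3 other classes of at least 1000 UMIs per cell. Rims1, Calb2 and Npy were seen in 97.5%, 86.4% and 85.6% of starburst cells and in under 6% of other GABAergic amacrine cells; Tac1, Cartpt and Scn3a were in 0 of 118 starburst cells. Sag helped choose the rods and shows rod RNA in the other classes.

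At equal depth the contrast held. With every cell thinned to 1000 UMIs, Isl1 was seen in 76.3% of starburst cells and 1.5% of 1395 other GABAergic amacrine cells, Sox2 in 34.7% and 0.6%, and Megf10 in 30.5% and 0.1%. Unthinned, these shares were 96.6% and 3.2%, 77.1% and 1.6%, and 88.1% and 2.1%. Gad1 was close in the classes, at 72.9% and 55.9%, while Gad2, the other GABA-synthesizing enzyme, was seen in 0.8% of starburst cells and 19.2% of other GABAergic cells. Gad1 and Gad2 helped choose the comparison cells, so that this pair is a description.

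Rims1, a scaffold of the presynaptic active zone, had the smallest p of all genes. It was at 5585 to 8779 CPM (median 6720) in starburst cells and 49.96 to 138 CPM (median 71.5) in other GABAergic cells, a log2 fold change of 6.47 ± 0.15 (edgeR adjusted p = 4.92e-26), and had a UMI in 97.5% of starburst cells at 1000 UMIs against 5.9%. The gene lies on chromosome 1, from 22286251 to 22805994 on the minus strand. Every starburst sum was thus far above every sum of the other cells.

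Calcium binding and vesicle release genes followed, with 5 of 11 tested higher and 1 lower. Calb2 (calretinin), a calcium buffer by which the starburst layers are commonly stained, was at 1770 to 3926 CPM against 81.9 to 788 CPM (log2 fold change 3.69 ± 0.19), and Calb1 (calbindin) was higher by 2.48 ± 0.16. The calcium sensor Syt1 (0.79 ± 0.10) and the SNARE proteins Snap25 (0.60 ± 0.11) and Vamp2 (0.32 ± 0.10) differed by less than 1 log2 unit. Cplx2, which clamps fusion, was lower by 0.79 ± 0.21, in 8 of 10 mice.

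Of 13 neuropeptides listed 3 were tested, of which Pnoc and Npy were higher and Tac1 was lower. Tac1 could pass the filter on low counts only through the other GABAergic cells, and Pnoc only through starburst cells. The directions of Tac1 and Pnoc are thus a description. Pnoc, the precursor of nociceptin (chromosome 14, 65400673 to 65425472, minus strand), was at 528 to 1386 CPM (median 804) in starburst cells and 0 to 25.0 CPM (median 5.65) in other GABAergic cells, a log2 fold change of 6.99 ± 0.26 (edgeR adjusted p = 2.46e-20). Npy, which marks other amacrine cells too, was at 1677 to 2901 CPM against 124 to 1112 CPM (2.77 ± 0.21). Both were higher in 10 of 10 mice.

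Tac1, the substance P precursor, had 0 UMIs in all 118 starburst cells, at least 43.7-fold lower than in other GABAergic cells (62.5 to 237 CPM) with 3 counts over all mice as the floor. Tnc, an extracellular matrix glycoprotein, was also at 0 UMIs (at least 54.8-fold lower), as was Scn3a, a sodium channel (at least 39.4-fold lower). Cartpt, the precursor of the CART peptide, had 1 UMI in 1 control mouse and none elsewhere, against 220 to 2148 CPM in other GABAergic cells. Tac1, Tnc, Scn3a and Cartpt could each pass the filter on low counts only through the other GABAergic cells, so that their direction is a description.

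Among 12 potassium, calcium, sodium and HCN channel genes tested, 4 were higher and 4 lower. Those higher were Cacna1a, the pore of P/Q-type calcium channels (147 to 535 CPM against 29.6 to 120.0 CPM, log2 fold change 2.33 ± 0.15), its auxiliary subunit Cacna2d1 (2.11 ± 0.16), Cacna1b of N-type channels (1.53 ± 0.25) and Kcnc1, the Kv3.1 potassium channel (160 to 678 CPM against 40.1 to 156 CPM, 2.04 ± 0.15). Among those lower were 3 sodium channel genes, Scn3a at 0 UMIs, Scn2a (−1.41 ± 0.38) and Scn1a (−1.16 ± 0.39), the last pair in 9 of 10 mice, with the call of Scn1a lost in 6 of 18 alternatives. The 3 calcium channel genes called were higher and the 3 sodium channel genes called lower, but the calcium channel genes of the list did not all lean 1 way. Cacna1d (median 10.3 against 32.1 CPM) and Cacna1c (0 against 12.6 CPM) had lower medians in starburst cells and no call. Scn3a could pass the filter on low counts only through the other GABAergic cells. Kcnf1, a silent potassium channel subunit outside the list, was higher by 5.59 ± 0.35.

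Of 18 transmitter receptor genes tested, 8 were higher and 4 lower. Grm2, the mGluR2 glutamate receptor known in starburst cells, was at 61.5 to 421 CPM (median 303) against 23.3 to 90.3 CPM (log2 fold change 2.41 ± 0.21). The GABA-A receptor subunits divided, with Gabra2 (1.13 ± 0.13) higher and Gabra3 (−2.27 ± 0.34) lower. The glycine receptor subunit Glra2 (−2.50 ± 0.38) and the dopamine receptor Drd1 (−2.69 ± 0.40) were lower. Glutamate receptors Grm8 (1.48), Grin2b (1.08), Gria3 (0.66) and Gria1 (0.61) and the glycine receptor beta subunit Glrb (0.84) were higher. The call of Gria3 was lost in 13 of 19 alternatives (adjusted p up to 0.228) and that of Gria1 in 2 of 20.

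Cholinergic genes that did not choose the cells gave no call. Only Chrnb2, the beta-2 nicotinic subunit (log2 fold change 0.03 ± 0.25, edgeR adjusted p = 0.956), and Ache, acetylcholinesterase (−0.42 ± 0.33, edgeR adjusted p = 0.437), passed the filter on low counts. Of the GABA genes tested, Abat, which breaks GABA down, was lower by 3.48 ± 0.43 and the chloride exporter Slc12a5 by 0.76 ± 0.15, while the GABA transporter Slc6a11 (−0.39 ± 0.19) was not called.

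Among growth factor genes of interest to the study, Sparc, a matrix protein, was at 98.3 to 372 CPM in starburst cells and higher than in other GABAergic cells by 1.81 ± 0.38, in 7 of 10 mice. Igf1r, the IGF-1 receptor, was lower by 1.72 ± 0.30, in 10 of 10 mice. Vegfa (0.56 ± 0.26, edgeR adjusted p = 0.137) was not called. The endothelial marker Kdr, a VEGF receptor, had a UMI in 58.5% of starburst cells, 14.0% of other GABAergic and 24.6% of glycinergic amacrine cells. Only 2 of the 4 endothelial markers had a UMI in starburst cells.

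Of 13 mitochondrially encoded protein genes, 11 were higher and none lower, with a median log2 fold change of 0.39 against −0.04 over all genes. Of 37 nuclear respiratory chain genes, 4 were higher, among them Ndufa4 (0.72 ± 0.12), and 1 was lower, with a median of 0.15. The mitochondrial ribosomal RNAs mt-Rnr2 (0.98 ± 0.14) and mt-Rnr1 (0.86 ± 0.13), which differ between the control and the other libraries, were higher as well. Of 16 glycolysis genes, 2 were higher (Gpi1 0.68 and Pkm 0.60) and 1 lower (Hk1 −0.63). Of 14 immediate early genes 2 were higher and 1 lower, and of 8 heat shock chaperones none was higher and 1 was lower. Over all genes tested, 10.5% were higher and 11.5% lower. The higher counts of the nuclear respiratory chain, glycolysis and immediate early lists were near that share, and are not read as a trait of starburst cells.

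Among the further genes with large differences were Rprml (8.37 ± 0.44), Csrp3 (6.75 ± 0.41), a muscle LIM protein, Moxd1 (6.14 ± 0.36), Galnt15 (6.00 ± 0.24), a glycosyltransferase, Gng7 (5.80 ± 0.18), a G protein gamma subunit, Pappa2 (5.73 ± 0.25), a protease that cleaves IGF-binding proteins, and Tgfb3 (5.72 ± 0.25), a TGF-beta ligand. Rprml was seen in 15.3% of starburst cells and 0 of 1395 other GABAergic cells at 1000 UMIs. The largest decreases beside those above were Caly (−6.45 ± 0.53), Ddah1 (−5.98 ± 0.40) and Fxyd6 (−5.93 ± 0.43). Starburst sums held fewer UMIs (54069 to 162732 per mouse) than the comparison sums (475959 to 984158). With the sums thinned to equal depth, 303 of 964 genes still tested were called.

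Against glycinergic amacrine cells of the same 10 mice, 1113 of 3649 genes (30.5%) were called, 582 (15.9%) higher and 531 (14.6%) lower in starburst cells. The largest increases were in Pnoc (9.26 ± 0.26), Csrp3 (8.20 ± 0.38), Rprml (7.89 ± 0.41) and Rims1 (7.68 ± 0.15), followed by Kcnf1 (7.57 ± 0.38) and Gabrd (7.52 ± 0.38), the delta subunit of extrasynaptic GABA-A receptors. Gabrd was at 84.9 to 259 CPM in starburst cells and 0 to 2.84 CPM in glycinergic cells. Isl1 (5.89 ± 0.24), Sox2 (6.04 ± 0.32) and Megf10 (6.17 ± 0.32) were also higher. Both comparisons share their starburst sums.

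Of 5 GABA genes tested, 3 were higher and 1 lower. Gad1 was higher by 2.84 ± 0.16 and Slc6a11 by 1.43 ± 0.32 in starburst than in glycinergic cells, whereas Gad2 was lower by 3.31 ± 0.47. All 6 channel genes tested were higher, with a median log2 fold change of 2.54, and 9 of 12 receptor genes were higher and 2 lower. Npy differed by 6.44 ± 0.29. Among the largest decreases were Prdm13, a transcription factor of amacrine subtypes, with 0 UMIs in starburst cells (at least 55.7-fold lower), and Drd2, the D2 dopamine receptor (−5.12 ± 0.52).

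Starburst cells were next divided by Fezf1, which is known to set apart ON from OFF cells. A cell without a Fezf1 UMI may still express it. Since Fezf1 chose some of the cells and only 1 mouse had 5 or more cells on each side, no test was made. Fezf1 had a UMI in 2 of 27 control cells, 7 of 33 STZ cells, 6 of 25 ω-3 cells and 8 of 33 ω-6 cells. The cells with it held a median of 8110 UMIs and those without 8483, so that their depths were close.

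The genes given here were singled out after their values were seen. In the 3 STZ-treated groups, 21 cells held a Fezf1 UMI and 70 did not. Rnd3, a small GTPase known from OFF starburst cells and in none of the lists, had a UMI in 0 of the 21 cells, which allows a share of up to 14.3%, and in 35 of the 70 (50%). Tenm3, a teneurin adhesion molecule, was likewise at 0 of 21 and in 30 of 70 (42.9%). Zfhx3, a homeodomain factor, was seen in 23.8% and 55.7% and was at 38.1 and 332 CPM. In all groups together, Tenm3 was in 0 of 23 and 35 of 95 cells, and Rnd3 in 1 of 23 and 45 of 95.

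Other genes leaned to the cells with Fezf1. Slit2 was seen in 76.2% of them and 27.1% of the rest, at 196 and 61.5 CPM, and the adhesion gene Cntn5 in 23.8% and 4.3%. Grm2 was at 458 and 271 CPM, Gabra2 at 872 and 443 CPM, and Six3 at 621 and 438 CPM, whereas Pnoc was at 567 and 1091 CPM. Genes of the type as a whole were near level, with Isl1 in 100% and 94.3%, Megf10 in 95.2% and 90.0%, Sox2 in 85.7% and 75.7%, Calb1 in 85.7% and 87.1% and Unc5c in 28.6% and 34.3%. Within the STZ, ω-3 and ω-6 groups, Slit2 was seen in 85.7%, 66.7% and 75.0% of cells with Fezf1 and in 30.8%, 21.1% and 28.0% of those without. Zfhx3 was seen in 42.9%, 16.7% and 12.5% and in 50%, 68.4% and 52.0%, so that its shares were near level in STZ mice (3 of 7 and 13 of 26 cells), and in control mice it was in 1 of 2 and 10 of 25 cells.

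**Figure D2:**
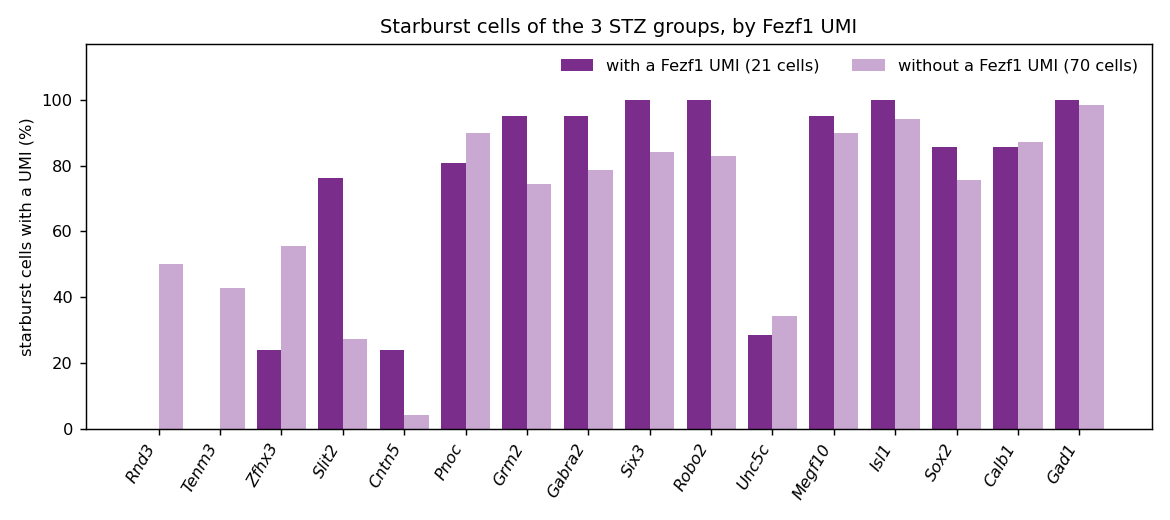
Percent of starburst cells with a UMI of each gene (y axis) in the 21 cells with and the 70 cells without a Fezf1 UMI, over the STZ, STZ_omega3 and STZ_omega6 mice. Rnd3 and Tenm3 were at 0% against 50% and 42.9%, Slit2 at 76.2% against 27.1%, and Isl1 and Gad1 were near 100% on both sides.

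The share of cells that were starburst cells was compared between groups. It was 0.432%, 1.65% and 0.670% in the control mice and 0.343%, 0.787% and 0.649% in the STZ mice, which overlapped. The means were 0.918% ± 0.646 (SD, n = 3) and 0.593% ± 0.227 (SD, n = 3), and the difference did not pass a two-sided exact permutation test (p = 0.6; the smallest p this design can give is 0.1). After every cell was thinned to 1000 UMIs the order turned, with 0.420% in control and 0.571% in STZ mice (exact permutation p = 0.7), and without PBS mouse 2 it turned as well, to a difference of 0.0421 percentage points.

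On the diets, the share was 0.628% and 0.391% in the ω-3 mice and 0.344%, 0.784% and 0.521% in the ω-6 mice. The means were 0.509% ± 0.168 (SD, n = 2) and 0.550% ± 0.221 (SD, n = 3), with an exact permutation p = 1, the smallest possible being 0.1. Counts of 4 to 17 cells per mouse set the precision. The 95% exact binomial interval ran from 0.118% to 1.10% for the control mouse with 4 cells and from 0.457% to 1.25% for the ω-6 mouse with 17, and these intervals cover counting error only.

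**Figure D3:**
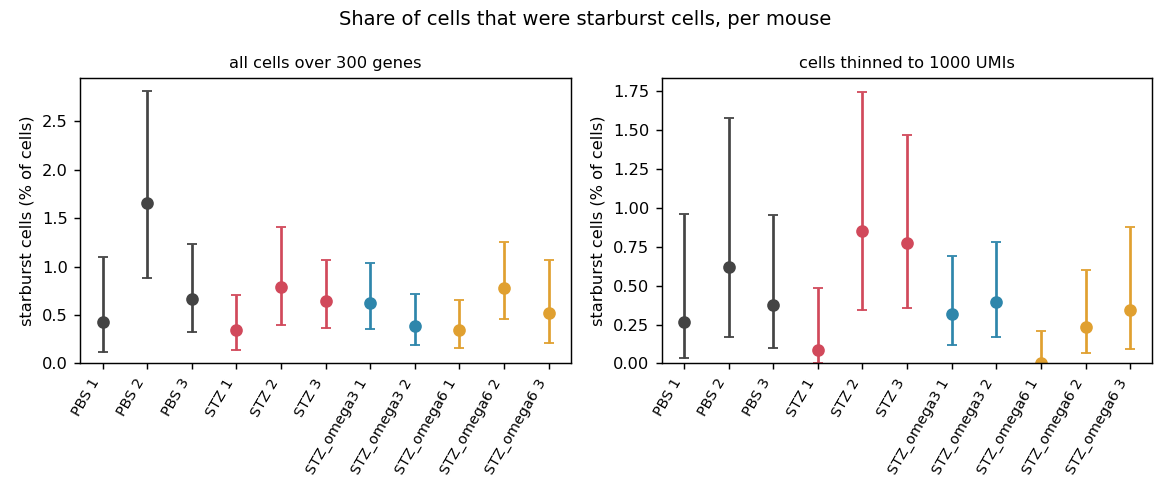
Starburst cells as percent of cells with over 300 genes in each mouse (left) and after thinning each cell to 1000 UMIs (right), with 95% exact binomial intervals as bars, coloured by group. PBS 2 was highest on the left at 1.65%, and the groups overlapped in both panels.

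STZ and control mice were compared within starburst cells, to ask how these neurons differed in Phase I ROP. The fit held 3 STZ mice and 2 control mice, since PBS mouse 1 had only 4 starburst cells, and its values are given beside the others. Of 2046 genes tested, 20 (0.978%) were called, 10 (0.489%) higher and 10 (0.489%) lower in STZ mice. All 20 calls came with mice that did not overlap, as did 32.3% of all genes tested.

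Immediate early genes, which neurons transcribe within minutes of a stimulus, made up 5 of the 10 higher genes. Fos (chromosome 12, 85473890 to 85477273, plus strand), part of the AP-1 factor, was at 0, 6.53 and 12.3 CPM in the control mice and 547, 1295 and 809.6 CPM in the STZ mice (log2 fold change 6.24 ± 0.61, edgeR adjusted p = 0.00013). It had a UMI in 2 of the 27 control cells and in 27 of the 33 STZ cells. Nr4a1 (chromosome 15, 101254269 to 101274795, plus strand), an orphan nuclear receptor, had no UMI in any of the 27 control cells and was at 200.4, 684 and 765 CPM in the STZ mice, at least 45.9-fold higher with 3 counts over the control group as the floor (edgeR adjusted p = 0.00247). The control and STZ mice did not overlap for either gene.

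Egr1, a zinc finger factor, was at 0, 0 and 24.6 CPM in control and 200.4, 333 and 388 CPM in STZ mice (4.72 ± 0.78, edgeR adjusted p = 0.00815). Dusp1, a phosphatase that switches off MAP kinases, was at 20.3, 13.1 and 0 CPM and 237, 536 and 311 CPM (4.98 ± 0.74, edgeR adjusted p = 0.00311). Klf6, a zinc finger factor, had no UMI in the control mice and was at 273, 166 and 99.8 CPM, at least 13.0-fold higher. Of the 23 genes of the list 10 were tested, and all 10 had positive log2 fold changes with a median of 5.60, against 0.01 over all genes. Jun (3.20 ± 0.74, edgeR adjusted p = 0.0517) and Junb (1.52 ± 0.54, edgeR adjusted p = 0.176) were not called. Genes absent from control can pass the filter only through the STZ mice, so that the counts of this list are a description.

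The mice on the diets, which also received STZ, had these RNAs as well. Fos was at 635 and 961 CPM in ω-3 and 847, 848 and 1299 CPM in ω-6 mice, and Nr4a1 at 341 and 754 CPM and at 231, 461 and 421 CPM. All 8 STZ-treated mice were above all 3 control mice for Fos, Nr4a1, Egr1 and Dusp1. The same division ran through other GABAergic amacrine cells, in which Fos was at 31.4 to 63.6 CPM in control and 721 to 1428 CPM in all other mice. It follows the line between the control and the other libraries described above, and the part of library preparation in it cannot be told apart from that of STZ.

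The promoters of 4 of these 5 genes are printed because the genes moved together, Egr1 having none in the table, and were searched for the letters of a known activity-response element. Each is the 250 bases before the transcription start (RefSeq, GRCm38.p6, in the direction of the gene), with capitals marking TGACG, the core of the cAMP response element, or CGTCA, the same letters on the other strand. Fos lies at chr12:85473640-85473889 on the plus strand, Nr4a1 at chr15:101266596-101266845 on the plus strand, Dusp1 at chr17:26508473-26508722 on the minus strand and Klf6 at chr13:5861239-5861488 on the plus strand.
Fos: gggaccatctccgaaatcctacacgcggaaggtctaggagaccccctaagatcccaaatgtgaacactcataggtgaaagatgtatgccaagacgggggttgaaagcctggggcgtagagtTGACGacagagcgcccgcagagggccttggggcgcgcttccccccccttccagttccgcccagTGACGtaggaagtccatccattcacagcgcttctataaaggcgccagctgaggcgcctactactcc
Nr4a1: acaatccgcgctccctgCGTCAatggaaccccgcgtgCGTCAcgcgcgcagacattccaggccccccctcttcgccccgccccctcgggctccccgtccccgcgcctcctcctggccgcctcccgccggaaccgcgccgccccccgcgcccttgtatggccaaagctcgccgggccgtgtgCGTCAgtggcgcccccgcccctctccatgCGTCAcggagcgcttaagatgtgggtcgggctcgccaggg
Dusp1: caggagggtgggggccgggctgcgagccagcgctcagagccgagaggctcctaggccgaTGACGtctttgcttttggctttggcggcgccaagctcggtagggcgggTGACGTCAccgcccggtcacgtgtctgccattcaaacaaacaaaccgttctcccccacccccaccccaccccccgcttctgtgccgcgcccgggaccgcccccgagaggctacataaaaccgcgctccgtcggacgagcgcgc
Klf6: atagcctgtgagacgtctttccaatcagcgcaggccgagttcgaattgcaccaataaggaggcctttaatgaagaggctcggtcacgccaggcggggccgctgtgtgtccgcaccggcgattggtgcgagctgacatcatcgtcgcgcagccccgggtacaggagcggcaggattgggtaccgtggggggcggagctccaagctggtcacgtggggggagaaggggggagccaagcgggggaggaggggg
Fos held 2 matches, Nr4a1 4 and Dusp1 3, of which 2 overlap as the palindrome TGACGTCA, and Klf6 held 0. Of 27025 promoters of this length, 17.9% held TGACG on either strand, 4.02% held it more than once and 1.62% held TGACGTCA. Of the 10 genes higher in STZ, 9 had a promoter in the table, 6 held TGACG (Fos, Nr4a1, Dusp1, Dusp8, Atf4 and Pax6) and 3 held TGACGTCA. Of the 10 lower genes, 4 had a promoter and 1, Lpcat1, held TGACG. A match of letters is not evidence that a factor bound.

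The other 5 higher genes were Gadd45b, a stress-response gene without a UMI in control cells and 91.1 to 314 CPM in STZ mice (at least 13.7-fold higher), Dusp8 (2.69 ± 0.56), another MAP kinase phosphatase, Atf4 (2.63 ± 0.52), a factor of the integrated stress response, the clock repressor Nr1d1 (2.58 ± 0.56) and Pax6 (1.63 ± 0.34, edgeR adjusted p = 0.0426). Pax6 was at 284, 157 and 184 CPM in the control mice and 638, 462 and 710 CPM in the STZ mice, and at 462 to 654 CPM on the diets. In other GABAergic cells Pax6 was at 493 to 504 CPM in control and 669 to 835 CPM in STZ mice. All 8 transcription factors tested from the amacrine list had positive values with a median of 0.74, and Pax6 was the only 1 called. Isl1 was at 0.63 ± 0.31 (edgeR adjusted p = 0.345) and Sox2 at 0.64 ± 0.37 (edgeR adjusted p = 0.413).

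**Figure D4:**
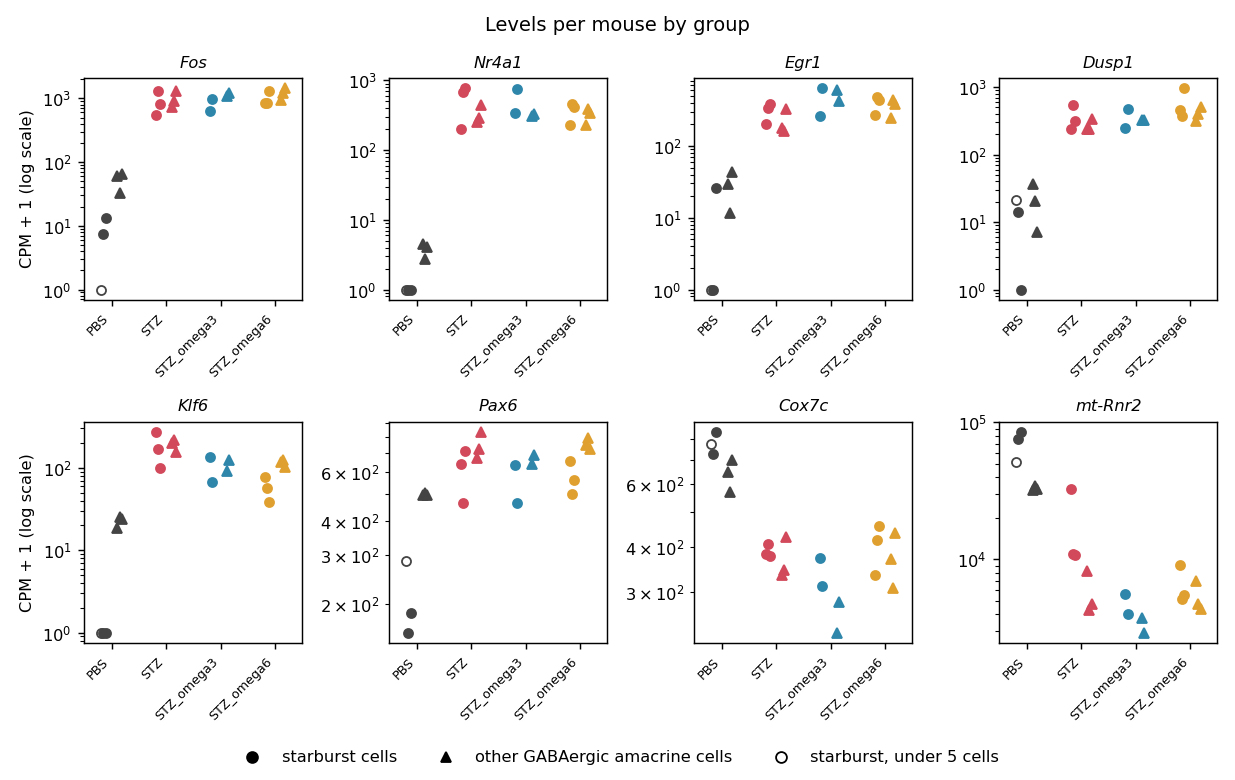
Level of 8 genes by group (CPM + 1, log axes that differ between panels) in starburst cells (circles, open for the control mouse with 4 cells) and in other GABAergic amacrine cells (triangles), 1 symbol per mouse. Fos and Nr4a1 were at 0 to 12.3 CPM in control starburst cells and at 200.4 CPM or more in all 8 STZ-treated mice, and mt-Rnr2 was highest in control mice.

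Of the lower genes, Cox7c and mt-Nd5 belong to the respiratory chain. Cox7c, a subunit of cytochrome c oxidase, was at 771, 725 and 836 CPM in control and 383, 407 and 377 CPM in STZ mice, and fell by 1.21 ± 0.27 on the log2 scale (edgeR adjusted p = 0.0485). It was at 311 to 458 CPM on the diets. Only 1 of 33 nuclear respiratory chain genes tested was called, but none of the 33 had a positive value, and their median was −0.79 against 0.01 over all genes. The 13 mitochondrially encoded protein genes were also all negative with a median of −1.14, and mt-Nd5 (−1.65 ± 0.36) was called. Over the alternatives mt-Nd5 ran from −2.28 without PBS mouse 3 to −0.70 without PBS mouse 2 and lost its call in 6 of 16, and Cox7c lost its call in 5 of 16. None of 12 glycolysis genes was called. The ribosomal RNAs mt-Rnr2 (−2.34 ± 0.54, edgeR adjusted p = 0.0517) and mt-Rnr1 (−1.64 ± 0.38, edgeR adjusted p = 0.0517) moved the same way without a call. The interaction with other GABAergic cells, given below, called none of 37 nuclear or 13 mitochondrially encoded genes. Their median differences were 0.16 and 0.18, against 0.10 over all genes. The fall is thus not shown to be particular to starburst cells, and STZ and library preparation cannot be told apart in it.

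Lpcat1, which remodels phosphatidylcholine, was at 244, 327 and 418 CPM in control and 54.7, 18.5 and 22.2 CPM in STZ mice (log2 fold change −3.74 ± 0.52, edgeR adjusted p = 0.00311). It was at 0 to 64.2 CPM on the diets, so that all 8 STZ-treated mice were below the controls. In other GABAergic cells it was at 139.6 to 185 CPM in control and 41.5 to 93.9 CPM in STZ mice. Gm13341, Gm28439 and Gm13339 were lower by 1.65, 1.62 and 1.54 on the log2 scale. They are annotated as unprocessed pseudogenes outside the mitochondrial genome, and Gm37357 was also lower (−2.90 ± 0.42). Molecules of the pseudogenes may be shared with near-identical copies, so that their source is uncertain.

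Several lower genes rested on single cells. The zinc finger gene Zfp626 (−3.49 ± 0.66) had 98 of its 99 UMIs in PBS mouse 3 in 1 cell, and 30 of 34 in PBS mouse 2 in another. Gnat1, rod transducin and a rod marker (−3.16 ± 0.46), had 43 of 49 UMIs in PBS mouse 2 in 1 cell and 32 of 33 in PBS mouse 3 in 1 cell, the same cell that held Zfp626. Olfr1423 (−2.72 ± 0.60) had 24 of 28 UMIs in PBS mouse 3 in that cell too. The deepest starburst cell, with 30342 UMIs in PBS mouse 2 and markers of another class, held 258 of the 493 mt-Nd5 UMIs and 355 of the 898 Gm13341 UMIs of that mouse. Rod markers in starburst cells summed to 183, 385 and 479 CPM in the control and 164, 148 and 998 CPM in the STZ mice, and their part in these results was not tested.

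Genes of starburst identity and function otherwise gave no call between STZ and control. This held for 8 adhesion, 4 channel, 10 receptor, 8 calcium binding and vesicle release, 4 GABA and 2 neuropeptide genes tested. All 8 adhesion and all 4 GABA genes had positive values, with medians of 0.55 and 0.81 against 0.01 over all genes. Values were positive for 3 of the channel, 6 of the receptor, 4 of the calcium binding and vesicle release and 0 of the neuropeptide genes. Rims1 was at 0.07 ± 0.28, Gad1 at 0.81 ± 0.26 (edgeR adjusted p = 0.136), Npy at −0.70 ± 0.24 (edgeR adjusted p = 0.165) and Calb2 at −0.77 ± 0.25 (edgeR adjusted p = 0.145). With so few cells these p-values do not show that the levels were alike. DESeq2 called 37 genes, 7 higher and 30 lower. Leaving out STZ mouse 3 left 0 calls and leaving out STZ mouse 2 left 1, Fos, and with PBS mouse 1 included there were 48. Leaving out PBS mouse 2 gave 46 and PBS mouse 3 gave 106, but each of these set 3 STZ mice against a single control mouse, assumed to vary like the STZ mice. Of the other higher genes, Pax6 and Atf4 lost their call in 5 of 16 alternatives each and Nr1d1 in 4 of 16, and of the lower genes Gm28439 did so in 7 of 16.

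Whether starburst cells differed between STZ and control by another amount than other GABAergic amacrine cells was tested as an interaction in the same 5 mice. Of 8909 genes, 2 (0.0224%) were called by edgeR, 1 higher (0.0112%) and 1 lower (0.0112%), and 435 had an unadjusted p under 0.05. DESeq2 called 0. Fos (difference of log2 fold changes 2.11 ± 0.86, edgeR adjusted p = 0.968) and Nr4a1 were not called. The genes called were Zfp626, which rested on the control cells named above, and Sparc (chromosome 11, 55394500 to 55423183, minus strand). Sparc was at 365, 105 and 98.3 CPM in control and 164, 185 and 211 CPM in STZ starburst cells, while in other GABAergic cells it was at 33.9, 115 and 352 CPM and at 4.0, 191 and 20.7 CPM. With PBS mouse 1 counted, which was not in the fit, the groups overlapped in both classes. In the fit's own mice they overlapped in other GABAergic cells only. Without the cells that held markers of another class, the difference was −1.84 in place of 3.04 and was not called.

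The ω-6 and ω-3 mice gave no call within starburst cells. Of 2847 genes tested with edgeR 0 were called (0%), 155 had an unadjusted p under 0.05, and DESeq2 called 0. The 5 genes of smallest p, all uncalled, were Gabra2, Oip5, mt-Rnr1, Malat1 and Jak1. Gabra2, the alpha-2 GABA-A receptor subunit, was at 762 and 1027 CPM in ω-3 and 423, 301 and 334 CPM in ω-6 mice (log2 fold change −1.37 ± 0.28, edgeR adjusted p = 0.129). It was at 483 to 528 CPM in control and 255 to 629 CPM in STZ mice, so that the other groups lay between and across the diet groups.

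Oip5, a centromere protein, was at 151 and 207 CPM in ω-3 and 12.8, 18.4 and 0 CPM in ω-6 mice (−3.78 ± 0.82, edgeR adjusted p = 0.129). Jak1, a cytokine receptor kinase, was at 103 and 122 CPM and 436, 289 and 371 CPM (1.66 ± 0.40, edgeR adjusted p = 0.215). The nuclear RNA Malat1 (−1.12 ± 0.25) and mt-Rnr1 (0.89 ± 0.19) did not overlap between the diets either, as was true of 22.8% of all genes tested. Sparc was at −0.05 ± 0.43 and Fos at 0.31 ± 0.26.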

How the data were processed

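Retinal cells of 11 mice were captured with inDrop. The authors processed the reads with bcbio-nextgen, umis and Rapmap on mouse transcripts of GRCm38 and excluded barcodes with few reads. Each deposited matrix holds counts of distinct UMIs, as whole numbers, for every gene in every cell. The submitters' processing notes name the builds mm10 and GRCm38.p6. Whether counting used strand is not given in the sources used here.

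Cells were classed by marker UMIs, with no clustering and no doublet caller. Other GABAergic amacrine cells held 2 or more of Gad1, Gad2, Slc32a1, Tfap2a and Tfap2b, no Slc6a9 and did not pass the starburst rule. Glycinergic cells held Slc6a9 and 1 or more of Slc32a1, Tfap2a, Tfap2b and Pax6. UMIs were summed per mouse and class for mice with at least 5 starburst cells, since the mouse, not the cell, is the replicate. Sums were tested with edgeR 4.0.16 (TMM, filterByExpr, quasi-likelihood test, Benjamini-Hochberg adjustment over all genes tested, threshold 0.05), with mouse as a term where classes were compared. Genes that chose the cells were left out. Shares were compared by two-sided exact permutation over mice. A value written ± is a log2 fold change with its SE unless called SD. DESeq2 1.42.0, other scaling, filters and depth, and leaving out each mouse were alternatives. The edgeR tests of STZ against control, of starburst against other GABAergic cells and of the interaction were also run on simulated counts with planted changes. The outcome of these runs is not reported here, and the other tests were not run on simulated counts. Precision was limited by 54069 to 162732 UMIs per starburst sum.

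Genes were named if they were of the rule, of fixed lists, among the 12 largest increases and decreases of each comparison whose mice did not overlap, or, with no call, the 5 of smallest p. Some genes of the lists are counted but not reported here by name. The members and lists were chosen with earlier results of these data known. Coordinates follow GENCODE M21 on GRCm38, and promoters RefSeq on GRCm38.p6.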

Additional observations from a re-analysis of the deposited data

Results flagged for a closer look

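Between STZ and control mice, Zfp626 and Sparc differed by another amount in starburst cells than in other GABAergic amacrine cells (edgeR test of the interaction, 5 mice). For Zfp626 the log2 fold change in starburst cells was lower by a difference of −3.96 ± 0.71 (SE, edgeR adjusted p = 0.000189). In PBS mouse 3 a single starburst cell held 98 of its 99 UMIs, and without that mouse the difference was −2.66 and was not called. For Sparc the difference was 3.04 ± 0.61 (SE, edgeR adjusted p = 0.00222), with the mice of both groups overlapping in other GABAergic cells. Sparc in other GABAergic cells ran from 33.9 to 352 CPM within the control mice alone. Without cells that held 3 or more markers of another class it was −1.84, and without PBS mouse 3, STZ mouse 1 or STZ mouse 3 it was 2.19, 2.26 and 2.35 and was no longer called. DESeq2 called neither gene.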

How the results depend on the processing

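Between STZ and control starburst cells, 20 genes were called, 37 with DESeq2, 106 with no filter on low counts, 69 with 3 or more of the 5 rule genes, 42 without cells that held markers of another class, 31 with sums thinned to equal depth, 97 with all 4 groups in 1 fit and, with PBS mouse 1 added after the data were seen, 48. Leaving out 1 mouse gave 0 to 106 calls, and without either control mouse of the fit the control arm was 1 mouse, assumed to vary like the other group. Of the 20 genes, 10 were also called by DESeq2 and 20 with no filter.

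With the replicate number as a block the count was 100, of which 19 were among the 20. Same-numbered control and STZ mice correlated by 0.0215 and 0.0435 in their deviations, and same-numbered mice on the diets by 0.0949 and 0.134. The deviations of 2 mice from their own mean mirror each other, so that these values cannot show whether equal numbers mark pairs. The block left the 0 calls between the diets at 0. Without the mouse as a block, 1215 genes were called against other GABAergic cells and 940 against glycinergic cells.

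Between ω-6 and ω-3 mice the count of 0 became 3 with no filter, 1 without cells that held markers of another class and 6 in mice with at least 10 cells, and leaving out 1 mouse gave 0 to 4. The 6 calls set 1 ω-6 mouse against both ω-3 mice, and the calls without an ω-3 mouse (4 and 1) rest on 1 ω-3 mouse, so that the spread came from the other arm alone. Gabra2 was among the calls with no filter and without ω-3 mouse 1, and over the alternatives its log2 fold change ran from −1.59 to −1.17 and its edgeR or DESeq2 adjusted p from 0.0113 to 0.811.

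Against other GABAergic cells 1367 genes became 2934 with no filter and 303 of 964 tested with thinned sums, of which 285 were among the 1367; leaving out 1 mouse gave 1242 to 1349. Against glycinergic cells 1113 became 2910 and 386 of 928, and leaving out 1 mouse gave 995 to 1160. For the 2 interaction calls, DESeq2 and thinned sums gave 0, 3 or more rule genes, unmixed cells and mice with at least 10 cells gave 1 each, and leaving out 1 mouse gave 1 to 6. Sparc turned to −1.84 without mixed cells.

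The difference in the share of starburst cells, STZ minus control, was −0.325 percentage points, turned to 0.151 after thinning cells to 1000 UMIs, and ran from −0.568 to 0.0421 when 1 mouse was left out. For ω-6 minus ω-3 it was 0.0405, turned to −0.00754 with 3 or more rule genes, −0.164 after thinning and −0.443 of amacrine cells, and ran from −0.0780 to 0.159 without 1 mouse. Causes of these shifts were not tested. Of the genes called in a group or class comparison and recomputed under the alternatives, none changed sign. Most genes given without a call were not recomputed. The division by Fezf1 was not run as a test, since 1 mouse had 5 or more cells on both sides. Depth limits these results: 4 to 17 cells per mouse left many receptor, channel and peptide genes untested between groups.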
